A study of Mus musculus with 23 samples.

Results

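T and NK cell cytotoxicity was followed in B16-F1 melanomas through 10 genes, chosen by name from a table of 56748 genes, of which 29064 had at least 1 count in the 23 tumors. Cd3d, Cd3e and Cd3g encode the signalling chains that accompany the T cell receptor. Cd8a and Cd8b1 encode the co-receptor of cytotoxic T cells. Gzma and Gzmb encode granzymes, Prf1 encodes perforin and Nkg7 encodes a membrane protein of the cytotoxic granule. Klrk1 encodes NKG2D, an activating receptor of NK (natural killer) cells and CD8 T cells. All 10 genes were found, each with 1 entry, and all 10 passed the filter on low counts in both routes.

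A cytotoxic lymphocyte that recognises a target cell releases its granules into the contact zone, where perforin opens the membrane and granzymes enter and trigger death. T cells recognise peptide on MHC molecules through the receptor and its CD3 chains, with CD8 binding MHC class I, whereas NK cells read a balance of activating and inhibitory receptors. B16 melanoma is known for low MHC class I and for sparse infiltration by lymphocytes, so these transcripts come from a minority of the cells in a tumor.

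B16-F1 cells, a mouse melanoma line of C57BL/6 origin, were implanted under the skin of the flank of DBA/2J mice aged 6 to 8 weeks, a host strain that differs from the line's own. The mice then received drug either into the peritoneum (IP) or into the tumor (IT). PTX groups received pentoxifylline, a phosphodiesterase inhibitor, at 60 mg/kg, NCTD groups received norcantharidin, a demethylated cantharidin analog that inhibits protein phosphatases, at 3 mg/kg, and MIX groups received both at these doses. Saline was the vehicle of CONTROL_IP and DMSO that of CONTROL_IT, and the labels give the route also as the batch, so route, vehicle and batch cannot be told apart. The IP groups CONTROL_IP, PTX_IP, NCTD_IP and MIX_IP held 2 tumors each, CONTROL_IT, NCTD_IT and MIX_IT held 4 each and PTX_IT held 3. Each tumor carries its own replicate number, from 1 to 24 with 14 not analysed here, and p-values measure the spread between these tumors.

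Total counts ran from 2861578 to 6702374 per tumor. A floor of 3 counts corresponded to 0.449 to 1.04 CPM, the count scaled to library size by the trimmed mean of M values (TMM). Melanocyte genes summed to 15319 to 37163 CPM in every tumor, and the pan-leukocyte markers summed to 29.1 to 613 CPM. Xist, the transcript of the inactive X chromosome, was above the Y-linked gene Ddx3y in 8 of 23 tumors, namely in 3 of 3 PTX_IT tumors, 4 of 4 NCTD_IT tumors and 1 of 2 CONTROL_IP tumors, whereas Ddx3y was the higher in 4 of 4 CONTROL_IT and 4 of 4 MIX_IT tumors. The higher transcript was near the floor in CONTROL_IT replicate 9 (Ddx3y 1.03 CPM, floor 0.772 CPM). The same held in PTX_IT replicate 16 (Xist 1.28 CPM, floor 0.771 CPM). The design text describes sex-matched groups. In the comparisons of NCTD_IT and PTX_IT with CONTROL_IT, the drug and the sex of the host, as these transcripts show it, cannot be told apart. MIX_IT replicate 23 stood apart by its fibroblast markers (8542 CPM) and by the lowest melanocyte sum, and NCTD_IT replicate 18 by its neutrophil markers (1093 CPM against 2.26 to 46.3 CPM in the others).

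The 5 sequences that follow are the promoters of the 4 granule genes and of Klrk1, shown because each holds the letters TGTGGT, a RUNX motif. RUNX factors, among them Runx3, are known regulators of the cytotoxic program. Each runs 5′ to 3′ from 250 bases before to 50 bases after the RefSeq gene start, taken from RefSeq on GRCm38.p6 and located by exact match on GRCm39. They lie at chr13:113237466-113237765 (minus strand), chr14:56499742-56500041 (minus), chr10:61133365-61133664 (plus), chr7:43086312-43086611 (plus) and chr6:129600778-129601077 (minus). Capitals mark TGTGGT on either strand, which reads ACCACA where it lies on the other strand.
Gzma: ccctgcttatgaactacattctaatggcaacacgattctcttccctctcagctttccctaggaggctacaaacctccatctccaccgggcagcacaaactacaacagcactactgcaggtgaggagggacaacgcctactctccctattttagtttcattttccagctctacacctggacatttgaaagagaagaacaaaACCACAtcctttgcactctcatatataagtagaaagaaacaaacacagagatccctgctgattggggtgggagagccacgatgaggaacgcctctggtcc
Gzmb: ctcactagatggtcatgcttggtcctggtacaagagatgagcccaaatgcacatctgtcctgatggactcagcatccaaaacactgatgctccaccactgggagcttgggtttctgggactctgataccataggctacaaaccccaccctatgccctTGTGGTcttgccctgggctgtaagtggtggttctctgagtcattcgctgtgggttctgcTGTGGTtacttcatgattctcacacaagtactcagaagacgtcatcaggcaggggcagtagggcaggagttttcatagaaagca
Prf1: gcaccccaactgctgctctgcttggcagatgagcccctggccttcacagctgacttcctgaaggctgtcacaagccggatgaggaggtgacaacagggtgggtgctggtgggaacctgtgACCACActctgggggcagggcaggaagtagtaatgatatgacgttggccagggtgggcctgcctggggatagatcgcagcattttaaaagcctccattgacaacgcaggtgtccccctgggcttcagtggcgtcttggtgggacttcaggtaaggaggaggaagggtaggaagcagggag
Nkg7: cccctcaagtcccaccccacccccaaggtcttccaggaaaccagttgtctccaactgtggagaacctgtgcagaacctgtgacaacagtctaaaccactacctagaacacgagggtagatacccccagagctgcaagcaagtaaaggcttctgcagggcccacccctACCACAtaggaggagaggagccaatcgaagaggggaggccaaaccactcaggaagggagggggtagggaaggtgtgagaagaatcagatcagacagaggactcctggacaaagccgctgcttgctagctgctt
Klrk1: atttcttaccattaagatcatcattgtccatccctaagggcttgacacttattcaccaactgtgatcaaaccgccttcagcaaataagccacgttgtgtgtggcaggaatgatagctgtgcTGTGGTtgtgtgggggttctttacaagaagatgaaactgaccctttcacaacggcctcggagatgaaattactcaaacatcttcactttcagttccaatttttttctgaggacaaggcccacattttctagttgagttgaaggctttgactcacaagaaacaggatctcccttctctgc

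A promoter was matched for 9 of the 10 genes, all but Cd8b1. TGTGGT stood in 5 of these 9, the 5 printed, and in none of Cd3d, Cd3e, Cd3g and Cd8a, against 16.8% of 32851 RefSeq promoters of the same length. In Gzmb it occurred 2 times, beginning 93 and 34 bases before the start, and TGANTCA, the AP-1 motif, began 58 bases before the start, between them. The ETS motif AGGAAG stood in 4 of 9 (35.4% of all promoters) and occurred 4 times in Prf1. TGANTCA stood in 2 of 9 (7.81%), the T-box motif TCACAC in 2 of 9 (14.5%) and the NFAT motif GGAAAA in 1 of 9 (23.4%). All were searched on both strands, none of the matches overlapped another, and a match is a stretch of letters and not a measured binding site.

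On GRCm39 the CD3 genes lie side by side on chromosome 9, with Cd3g at chr9:44880870-44891729 (minus strand), Cd3d at chr9:44893084-44898637 (plus) and Cd3e at chr9:44910038-44920925 (minus). Cd3g and Cd3d are divergent neighbours with 1354 bases between their models. Cd8b1 (chr6:71299772-71314478, plus) and Cd8a (chr6:71350411-71356157, plus) are 35932 bases apart, and Klrk1 is at chr6:129587286-129600827 (minus). The granule genes are scattered, with Gzma at chr13:113230359-113237515 (minus), Gzmb at chr14:56496295-56499717 (minus), Prf1 at chr10:61133612-61140459 (plus) and Nkg7 at chr7:43086497-43087673 (plus).

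Summed over the 10 genes, the level per tumor ran from 4.38 to 566 CPM, a 129-fold range, and tumors of one group differed nearly as widely as the whole series. In CONTROL_IT the sum was 4.38, 313, 47.9 and 28.0 CPM in replicates 9, 10, 11 and 12. In NCTD_IT it was 210, 89.0, 67.4 and 566 CPM in replicates 17, 18, 19 and 20. One control, replicate 10, lay above 3 of the 4 NCTD_IT tumors, and the other 3 controls lay below all 4. In PTX_IT the sum was 209, 308 and 14.1 CPM in replicates 13, 15 and 16. In MIX_IT it was 20.6, 248, 11.4 and 131 CPM in replicates 21 to 24. Each of these groups held at least 1 of the 9 tumors with the highest sums and, except NCTD_IT, at least 1 of the 6 with the lowest. The IP tumors held 83.3 and 277 CPM in CONTROL_IP, 201 and 20.97 CPM in PTX_IP, 110 and 237 CPM in NCTD_IP and 127 and 90.0 CPM in MIX_IP, with overlap of every drug group and its control.

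**Figure D1:**
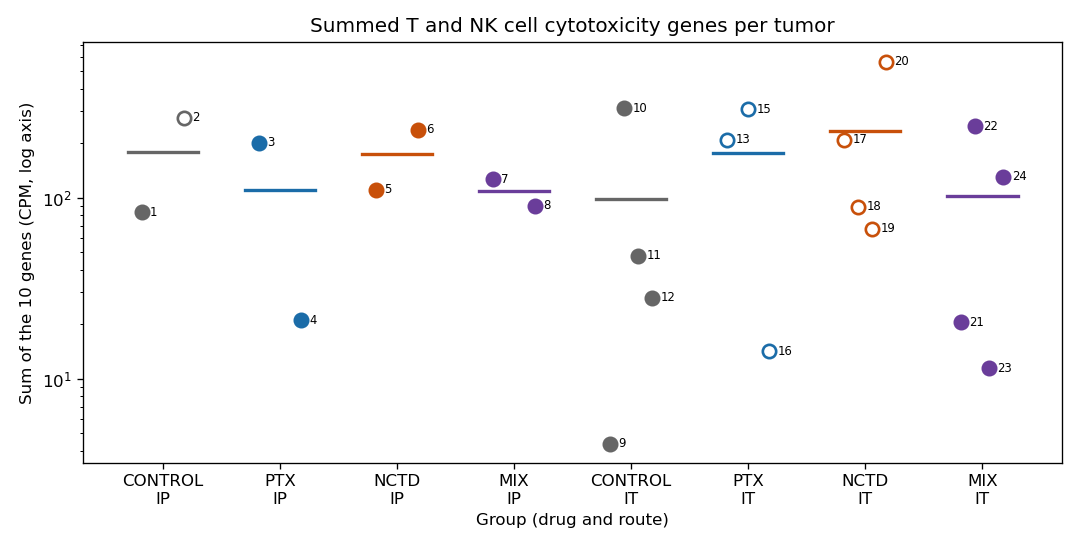
Sum of the 10 genes in each tumor (CPM, log axis) by drug and route; each point is a tumor with its replicate number, lines are group means, and open points are tumors in which Xist was above Ddx3y. The sums run from 4.38 CPM in CONTROL_IT replicate 9 to 566 CPM in NCTD_IT replicate 20, and every drug group overlaps its control.

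Ordered by the mean of the sum, the groups were NCTD_IT (233 ± 231 CPM, SD, n = 4), CONTROL_IP (180 ± 137, n = 2), PTX_IT (177 ± 150, n = 3), NCTD_IP (174 ± 89.4, n = 2), PTX_IP (111 ± 127, n = 2), MIX_IP (108 ± 26.0, n = 2), MIX_IT (103 ± 111, n = 4) and CONTROL_IT (98.3 ± 144, n = 4). No neighbours in this order differed by more than the SD of either one. The 10 genes had a biological coefficient of variation between tumors of one group of 0.858 (Cd3e) to 1.27 (Cd3g), against a median of 0.294 over 13395 genes. Among genes of like level, Cd3e stood only at percentile 64.1 of this coefficient, and each of the others at 98.9 or above. Between 16.7% (Cd3d) and 36.3% (Cd3e) of the variance of the 10 genes on the log2 scale lay between the 8 groups. The median gene had 34.5%, and 8 groups of 23 tumors give 31.8% on average without any difference.

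The counts behind the low tumors were few. The 10 genes together had 17 counts in CONTROL_IT replicate 9 and 2123 in NCTD_IT replicate 20. In CONTROL_IT replicate 9, 9 of 10 genes were at or under the floor of 3 counts, and in MIX_IT replicate 23 it was 7 of 10, of which 6 had no count. At a count of 0 a level up to the floor, here as elsewhere for counting error only, remained possible. Every gene was above the floor in 12 of 23 tumors.

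Among the CD3 chains, Cd3g is the one with the widest spread between tumors of a group. Cd3g was at 0, 9.86, 1.76 and 0 CPM in CONTROL_IT replicates 9 to 12 and at 7.48, 0.881, 1.38 and 33.3 CPM in NCTD_IT replicates 17 to 20. In the IP tumors Cd3g was at 1.94 and 7.21 CPM in CONTROL_IP and at 7.56 and 16.95 CPM in NCTD_IP. Both NCTD_IP tumors were above both CONTROL_IP tumors for Cd3g, by a narrow margin, and it was the 1 of 10 genes without overlap in that comparison, where 34% of all genes did not overlap. Cd3d followed the same tumors, with 4.82 CPM in CONTROL_IT replicate 10 against 0 to 2.52 CPM in the other controls, and with 17.1 CPM in NCTD_IT replicate 20.

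Cd3e was the CD3 chain with the fewest reads. It had 0, 2, 1 and 1 counts in the 4 CONTROL_IT tumors, so that its control level (0.243 ± 0.181 CPM, SD, n = 4) rested on 4 counts, all at or under the floor. In NCTD_IT it was at 3.30, 0, 0.691 and 7.20 CPM in replicates 17 to 20, and in PTX_IT at 2.23, 3.54 and 0.257 CPM in replicates 13, 15 and 16. The highest tumors of both drug groups exceeded every control, and the lowest did not.

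Cd8a, the chain that both forms of the CD8 co-receptor contain, was at 0, 10.95, 4.28 and 0.566 CPM in CONTROL_IT replicates 9 to 12. In NCTD_IT it was at 14.4, 5.29, 2.77 and 39.2 CPM, in PTX_IT at 10.6, 25.5 and 0.257 CPM and in MIX_IT at 1.71, 20.4, 0 and 6.33 CPM. The ranges overlapped in all 3 comparisons, with 1 high control and 1 or more low treated tumors. In the IP groups Cd8a was at 5.63 and 19.8 CPM in CONTROL_IP, 14.5 and 0.655 CPM in PTX_IP, 7.56 and 17.2 CPM in NCTD_IP and 8.87 and 3.65 CPM in MIX_IP. Cd8b1, the chain specific to the heterodimer of conventional CD8 T cells, had its highest IT levels in NCTD_IT replicate 20 (16.001 CPM) and PTX_IT replicate 13 (15.9 CPM), and its highest of all in NCTD_IP replicate 6 (20.1 CPM).

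Gzmb, the granzyme that cleaves caspases in the target cell, was at 0.772, 94.6, 10.3 and 7.36 CPM in CONTROL_IT replicates 9 to 12. In NCTD_IT it was at 47.6, 18.8, 14.2 and 162 CPM, and in MIX_IT at 4.28, 62.9, 0 and 34.0 CPM. The control replicate 10 was second to NCTD_IT replicate 20 among all 23 tumors, and MIX_IT replicate 23 had no count. Prf1 was at 1.29, 69.5, 10.8 and 5.66 CPM in CONTROL_IT and at 63.6, 21.1, 12.4 and 153 CPM in NCTD_IT. As for Gzmb, 3 of 4 controls were below all 4 NCTD_IT tumors and replicate 10 was above 3 of them.

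Gzma, a tryptase of the same granules, was highest in CONTROL_IT replicate 10 (88.7 CPM), above NCTD_IT replicate 20 (62.1 CPM). The other CONTROL_IT tumors had 0.772, 11.8 and 8.49 CPM and the other NCTD_IT tumors 28.5, 21.7 and 24.2 CPM. Nkg7 ran from 0.772 to 17.7 CPM in CONTROL_IT, from 2.42 to 40.8 CPM in NCTD_IT, from 1.03 to 22.9 CPM in PTX_IT and from 1.07 to 16.1 CPM in MIX_IT. In PTX_IP replicate 4, Nkg7 was at 0.218 CPM and Klrk1 and Cd3d at 0, against 29.3, 17.97 and 8.53 CPM in PTX_IP replicate 3.

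Klrk1 was low in 3 of the 4 IT controls. It was at 0.515, 10.7, 1.26 and 0.849 CPM in CONTROL_IT replicates 9 to 12 and at 21.04, 7.64, 7.26 and 35.7 CPM in NCTD_IT replicates 17 to 20. The 4 NCTD_IT tumors lay above 3 of the 4 controls, and replicate 10 lay within the NCTD_IT range. In PTX_IT Klrk1 was at 10.6, 17.1 and 1.03 CPM and in MIX_IT at 0.642, 14.0, 1.21 and 7.16 CPM, so both groups held tumors at the control level.

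**Figure D2:**
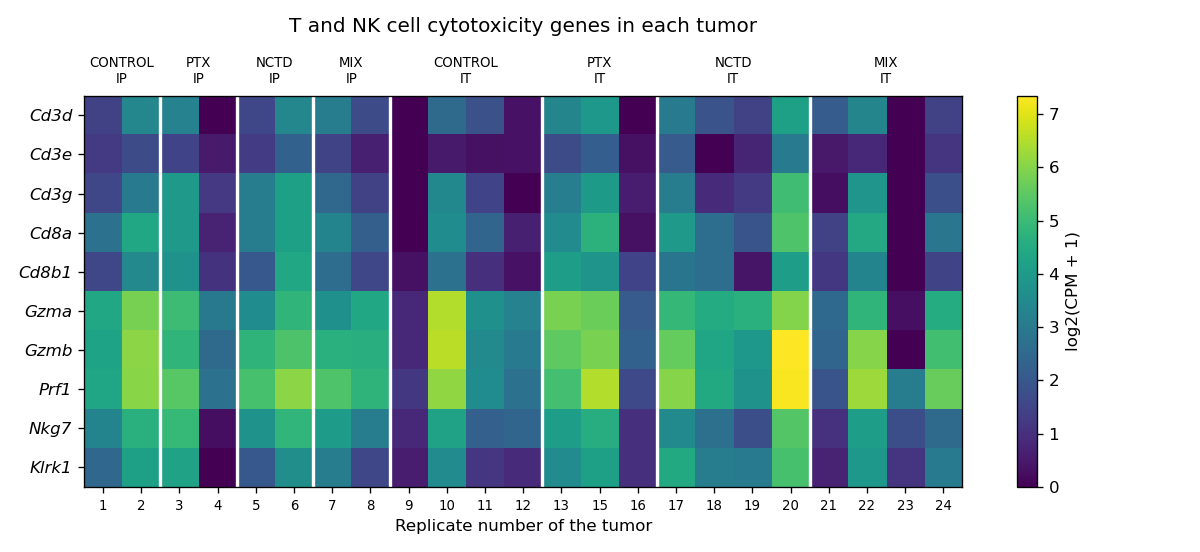
Level of each of the 10 genes (rows) in each of the 23 tumors (columns, by group and replicate number) as log2(CPM + 1), in colour from dark (0) to light. Tumors of one group differ widely. CONTROL_IT replicate 10 and NCTD_IT replicate 20 are light across the genes, and CONTROL_IT replicate 9 and MIX_IT replicate 23 are dark.

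The drug groups were compared with the control of the same route with edgeR's quasi-likelihood test and Benjamini-Hochberg adjustment over all tested genes, 12480 in the IT and 12424 in the IP route. With the filter on low counts in place, edgeR called none of the 10 genes at an adjusted p of 0.05 in the 13 comparisons. For NCTD_IT, 0 of 10 passed, where 1.37% of all genes did. At an unadjusted p below 0.05 there were 2 of 10 (Cd3e and Klrk1), where 21.6% of all genes passed, and DESeq2 called 0 of the 9 to which it gave an adjusted p, where it called 10.6% of genes. At DESeq2's unadjusted p below 0.05 there were 4 of these 9, where 23.4% of genes passed. The smallest adjusted p of the 9 in DESeq2 was 0.063. All 10 fold changes in edgeR were positive, as were 52.0% of all genes, with a median log2 fold change of 1.84 against 0.03 for all genes. The 10 genes varied together across tumors, as given below. A sign shared by all 10, here and in the comparisons that follow, is therefore not 10 independent results.

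In NCTD_IT against CONTROL_IT the log2 fold changes of the CD3 chains were 1.85 ± 1.21 (SE) for Cd3d, 3.36 ± 1.23 for Cd3e and 1.83 ± 1.40 for Cd3g, with the 4 control counts of Cd3e noted above. Those of the CD8 chains were 1.92 ± 1.23 for Cd8a and 1.88 ± 1.12 for Cd8b1. The granule genes gave 0.29 ± 1.02 for Gzma, 1.07 ± 1.19 for Gzmb, 1.49 ± 1.13 for Prf1 and 1.13 ± 0.99 for Nkg7. Klrk1 gave 2.37 ± 1.00, the largest value after Cd3e. The smallest adjusted p values in edgeR were 0.132 for Cd3e and 0.182 for Klrk1. With standard errors near 1 on the log2 scale, a change of several fold could go undetected in these genes.

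The control replicate 10 set much of the size. Without it the median log2 fold change of the 10 genes for NCTD_IT was 3.34, 8 of 10 had an unadjusted p below 0.05, where 22.6% of all genes did, and 0 passed edgeR's adjusted threshold, where 1.54% of genes did, the smallest adjusted p being 0.0572 for Klrk1. Without NCTD_IT replicate 20 the median was 0.58. Without the filter on low counts edgeR called 6 of 10 (Cd3g, Cd8a, Cd8b1, Gzmb, Prf1 and Klrk1), where it called 4.43% of 26878 genes. The fold changes moved by at most 0.0115 in that fit, and the median standard error of the 10 genes went from 1.16 to 0.45. The ranges of all 6 genes overlapped between the groups, as given above for 5 of them and from 0.257 to 5.70 CPM against 0.346 to 16.001 CPM for Cd8b1. None of the 10 genes was free of overlap between NCTD_IT and CONTROL_IT, where 16.1% of all genes were.

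For PTX_IT, 0 of 10 genes passed in edgeR, as did 0% of all genes. At an unadjusted p below 0.05 there was 1 of 10 (Cd3e, log2 fold change 2.85 ± 1.30, adjusted p 0.785), where 6.35% of genes passed, and DESeq2 called 0 of 10 and 0.0969% of genes. At DESeq2's unadjusted p below 0.05 there were 2 of 10, where 6.91% of genes passed. In edgeR the other fold changes were as follows. The CD8 chains gave 1.55 ± 1.31 (Cd8a) and 2.41 ± 1.18 (Cd8b1), the other CD3 chains 1.96 ± 1.28 (Cd3d) and 1.35 ± 1.49 (Cd3g). The granule genes were nearer to 0, with 0.40 ± 1.09 (Gzma), 0.29 ± 1.29 (Gzmb), 0.90 ± 1.20 (Prf1) and 0.98 ± 1.06 (Nkg7), and Klrk1 gave 1.44 ± 1.06. All 10 values were positive (51.6% of all genes), with a median of 1.40, which became 2.91 without CONTROL_IT replicate 10 and 0.44 without PTX_IT replicate 15. Without the low-count filter 1 of 10 (Cd8b1) was called, where 0.826% of genes were. No gene was free of overlap, where 7.77% of all genes were. PTX_IT and NCTD_IT were set against the same 4 controls, so the shared sign in both is not independent.

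For MIX_IT, which received both drugs, 0 of 10 passed in edgeR at the adjusted threshold (0% of all genes) and 0 of 10 at the unadjusted one (13% of genes), and DESeq2 called 0 of 9 (1.92% of genes). The log2 fold changes ran from -1.01 ± 1.03 (Gzma) to 1.22 ± 1.28 (Cd3e), 7 of 10 were positive and the median was 0.65. That median became 2.08 without CONTROL_IT replicate 10 and -0.66 without MIX_IT replicate 22. Without the low-count filter 1 gene, Gzma, was called with a lower level in MIX_IT, where 1.35% of genes were called, and its levels of 0.243 to 27.0 CPM lay within the range of the controls except for replicate 23. No gene was free of overlap (9.5% of all genes).

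Across the 4 IT groups, the test for any difference called 0 of 10 genes (0.024% of all genes), with 1 of 10 (Cd3e, adjusted p 0.383 in edgeR) at the unadjusted threshold (12.9% of genes). DESeq2 called 0 of the 5 with an adjusted p (3.58% of genes). Without the low-count filter edgeR called 6 of 10, where it called 3.45% of genes.

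Whether both drugs together gave what the sum of the single drugs would give was tested on the log2 scale within the IT route. The difference was negative for all 10 genes, with a median of -2.70, and 0 of 10 passed in edgeR at the adjusted threshold (0.0401% of genes). At the unadjusted one there were 3 of 10, Cd3e (-4.99 ± 1.69), Cd8b1 (-3.60 ± 1.59) and Klrk1 (-3.06 ± 1.42), where 11.3% of genes passed. DESeq2 called 0 of 10 (0.139% of genes), with 1 of 10 at its unadjusted threshold (10.96% of genes). Without the low-count filter edgeR called 8 of 10, all except Cd3d and Cd3e, where it called 1.65% of genes. This difference contains the same 4 controls as the single comparisons. It adds MIX_IT and CONTROL_IT, in which Ddx3y was the higher in 4 of 4 tumors each. It subtracts PTX_IT and NCTD_IT, in which Xist was the higher in 3 of 3 and 4 of 4. A departure from the sum of the drugs and the sex of the host, as these transcripts show it, cannot be told apart here. Of 4 sex-linked genes tested, 3 passed edgeR's adjusted threshold, among 5 of all 12480 genes.

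**Figure D3:**
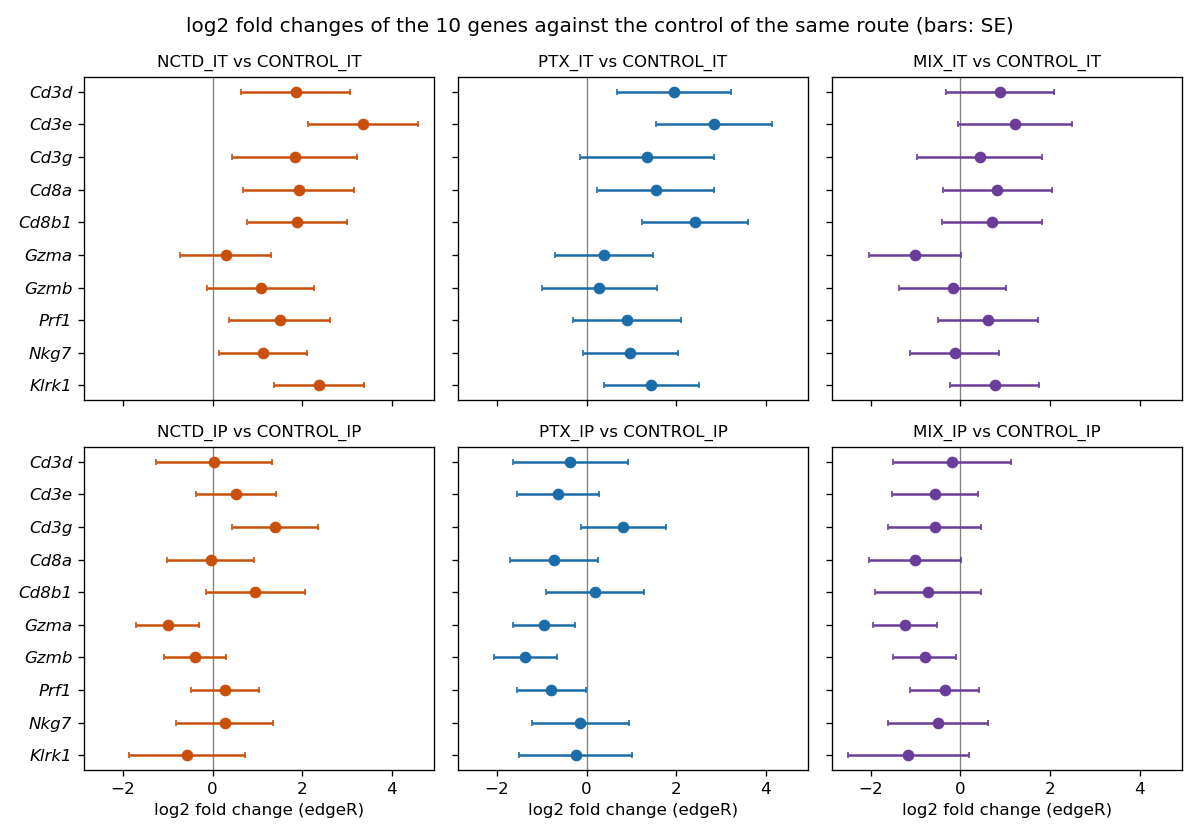
log2 fold change of each of the 10 genes against the control of the same route, from edgeR, with the standard error as a bar, in 6 panels for NCTD, PTX and MIX given IT (upper) and IP (lower). All 10 points are right of 0 for NCTD_IT and PTX_IT and all 10 left of 0 for MIX_IP, and none passed an adjusted p of 0.05.

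In the IP route the fold changes of NCTD and PTX lay on both sides of 0. CONTROL_IP replicate 2 was the 1 IP tumor with Xist above Ddx3y (8.26 against 0.451 CPM). It also had the higher sum of the 2 controls (277 against 83.3 CPM). In all IP comparisons with CONTROL_IP, the weight of this tumor and the sex of its host, as these transcripts show it, cannot be told apart. For NCTD_IP, 0 of 10 passed in edgeR at the adjusted (0% of genes) and 0 of 10 at the unadjusted threshold (3.59%). DESeq2 called 0 of 10 (0.0787%), with 1 of 10 at its unadjusted threshold (2.04%). The log2 fold changes ran from -1.004 ± 0.70 (Gzma) to 1.40 ± 0.96 (Cd3g), with a median of 0.15, which was 1.15 without CONTROL_IP replicate 2 and -0.69 without NCTD_IP replicate 6. For PTX_IP, 0 of 10 passed at the adjusted (0%) and 0 of 10 at the unadjusted threshold (5.3%), and DESeq2 called 0 of 10 (0.0186%). The values ran from -1.37 ± 0.70 (Gzmb) to 0.82 ± 0.95 (Cd3g), with a median of -0.50. That median was -3.01 without PTX_IP replicate 3 and 0.60 without CONTROL_IP replicate 2.

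For MIX_IP all 10 values were negative, from -1.23 ± 0.72 (Gzma) to -0.19 ± 1.32 (Cd3d), with a median of -0.65. That median was 0.41 without CONTROL_IP replicate 2 and -1.38 without MIX_IP replicate 7, and 9 of the 10 signs changed when 1 tumor was left out. In edgeR 0 of 10 passed at the adjusted (0%) and 0 of 10 at the unadjusted threshold (2.94%). DESeq2 called 0 of the 5 with an adjusted p (0.138%), with 1 of these 5 at its unadjusted threshold (2.92%). The test for any difference among the IP groups called 0 of 10 (0%), with 0 of 10 at the unadjusted threshold (3.27%) and 0 of 10 in DESeq2 (0.0715%). Without the low-count filter edgeR called 1 of 10 for PTX_IP (Gzmb, with 0.3% of genes called), 1 of 10 for MIX_IP (Gzma, 0.216%) and 2 of 10 for any difference (Gzma and Gzmb, 0.812%). With 2 tumors a group, 0 of 10 genes were free of overlap in PTX_IP (31.7% of all genes) and in MIX_IP (36%). Gzma was at 19.996 and 55.9 CPM in CONTROL_IP and at 12.0 and 20.2 CPM in MIX_IP.

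Between the routes none of these genes was called. With the drug in the model over 13395 genes, the log2 difference of IT from IP ran from -0.70 ± 0.62 (Nkg7) to 0.39 ± 0.70 (Gzmb). In edgeR 0 of 10 passed at the adjusted (0.739% of genes) and 0 of 10 at the unadjusted threshold (14.4%), and DESeq2 called 0 of 9 (3.78%). The difference between the IT and IP effect of NCTD passed for 0 of 10 genes (0%), with 0 of 10 unadjusted (10.8%) and 0 of 3 in DESeq2 (1.29%). For PTX it was 0 of 10 (0%), 0 of 10 unadjusted (5.23%) and 0 of 10 in DESeq2 (0.00344%). For MIX it was 0 of 10 (0%), 0 of 10 unadjusted (7.44%) and 0 of 3 in DESeq2 (0.0564%). Klrk1 had the largest difference for NCTD (2.94 ± 1.85, adjusted p 0.580 in edgeR) and Cd3e for PTX (3.52 ± 1.84, adjusted p 0.892 in edgeR). Without the low-count filter 1 of 10 was called for NCTD (Klrk1, with 0.974% of genes called) and 2 of 10 for PTX (Gzmb and Prf1, 0.378%). The NCTD and PTX differences carry the sex-linked split of the IT groups. In the IP route Xist was above Ddx3y in 1 of 2 CONTROL_IP tumors and in no PTX_IP or NCTD_IP tumor. Of 4 sex-linked genes tested, 3 were at edgeR's unadjusted threshold in each difference. Route and the sex of the host, as these transcripts show it, cannot be told apart in them.

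The 10 genes varied together across tumors. Over the 23 tumors the Pearson correlation of log2(CPM + 1) between any 2 of them was 0.648 to 0.953 with a median of 0.854 (45 pairs), and 0.598 to 0.962 with a median of 0.883 once the group means were removed. The highest was that of Gzma and Gzmb and the lowest that of Cd3e and Gzma. Cd3d and Cd8a gave 0.948 and the divergent neighbours Cd3d and Cd3g gave 0.873. The points share their library and its depth, and the value is a description of these tumors.

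The genes whose pattern was most like the mean of the 10, by Pearson's r over the 23 tumors and among 13385 others, were Ms4a4b (0.983), Trbc2 (0.983), H2-Ab1 (0.982), Il2rb (0.981), Rac2 (0.976), Nod1 (0.971), Cd52 (0.968), Mpeg1 (0.962), H2-D1 (0.961) and Gbp8 (0.961). Trbc2 is a constant region of the T cell receptor and Il2rb a receptor chain for interleukins 2 and 15 on T and NK cells. H2-Ab1 belongs to MHC class II, H2-D1 to MHC class I, and Mpeg1 is a pore-forming protein of macrophages. In all, 452 genes had an r above 0.8 and 785 had one below -0.6.

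The summed level of the 10 genes moved with the pan-leukocyte markers Ptprc, Cd52, Coro1a, Laptm5, Cd53 and Rac2 (r = 0.970 over 23 tumors) and with 9 macrophage markers (r = 0.896). Its r was 0.217 with melanocyte markers, -0.041 with fibroblast markers, 0.130 with neutrophil markers and 0.220 with total counts. With B cell markers r was 0.851, with dendritic cell markers 0.742, with keratinocyte markers 0.334 and with endothelial markers -0.030. The lowest values were -0.500 with erythroid genes and -0.575 with the mast cell list, in which Kit held nearly all counts. In a bulk tumor, fewer cytotoxic lymphocytes and less of these RNAs per lymphocyte cannot be told apart. Per unit of the pan-leukocyte sum, the 10 genes ran from 0.150 in CONTROL_IT replicate 9 to 1.07 in CONTROL_IT replicate 10. By group this ratio was 0.498 ± 0.397 (SD, n = 4) in CONTROL_IT, 0.531 ± 0.235 (n = 3) in PTX_IT, 0.644 ± 0.248 (n = 4) in NCTD_IT and 0.545 ± 0.375 (n = 4) in MIX_IT, differences smaller than the SD of each group.

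**Figure D4:**
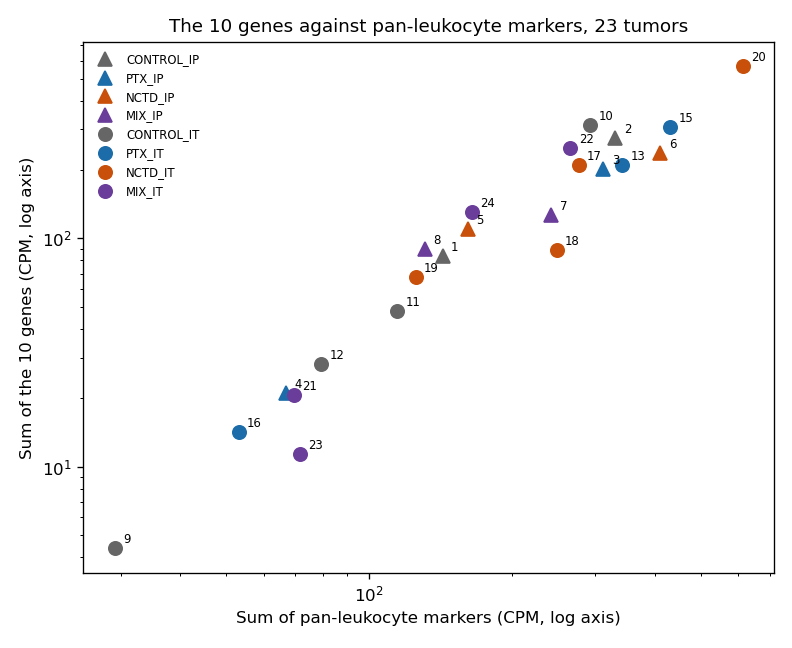
Sum of the 10 genes against the sum of 6 pan-leukocyte markers, both in CPM on log axes, 1 point a tumor with its replicate number, colour for the drug, triangles for IP and circles for IT. The tumors lie along one line from CONTROL_IT replicate 9 (4.38 and 29.1 CPM) to NCTD_IT replicate 20 (566 and 613 CPM), with r = 0.970 on the log2(CPM + 1) scale.

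Markers of other cells moved in the same comparisons. In NCTD_IT the sum of the pan-leukocyte markers was 126 to 613 CPM against 29.1 to 293 CPM in CONTROL_IT, with 0 of 6 past edgeR's adjusted threshold and 2 at the unadjusted one. The macrophage sum was 599 to 1670 CPM against 223 to 1084 CPM, with 0 of 9 adjusted and 3 unadjusted. Of 3 neutrophil markers tested, S100a8 (log2 fold change 5.60, adjusted p 0.0363 in edgeR) and S100a9 (6.63, adjusted p 0.0363) rose in NCTD_IT, and of 4 endothelial markers Emcn rose (1.29, adjusted p 0.0414). Mitf, the melanocyte transcription factor, fell by 0.86 on the log2 scale (adjusted p 0.0363 in edgeR), 1 of 7 melanocyte markers. Of 4 sex-linked genes tested, Xist rose (5.41, adjusted p 0.0280 in edgeR), and Ddx3y (-5.75, adjusted p 0.0280) and Eif2s3y (-7.27, adjusted p 0.0363) fell. No gene had a smaller adjusted p in NCTD_IT than Xist and Ddx3y. S100a8, S100a9 and Mitf remained below the adjusted threshold in 8 and Emcn in 6 of the 15 fits that left out 1 tumor. The log2 fold change of Mitf over these fits was -1.02 to -0.73 and that of Emcn 1.17 to 1.42. Without NCTD_IT replicate 18 the log2 fold changes of S100a8 and S100a9 were 2.53 and 2.75, with adjusted p values of 0.105 and 0.126 in edgeR. At the unadjusted threshold, all 4 endothelial markers tested and 4 of 5 fibroblast markers were higher in NCTD_IT and 3 of 4 erythroid genes were lower. The fibroblast sum was 377 to 1656 CPM in NCTD_IT, above all 4 controls. In MIX_IT the fibroblast sum was 485 to 8542 CPM against 106 to 361 CPM in CONTROL_IT. The part of these cells in the levels of the 10 genes was not tested.

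Counts of the CD3 and CD8 genes as a share of CD3, CD8 and granule gene counts gave a ratio within each tumor that does not depend on its depth. It ran from 0 to 35.5%, with a median of 20.1%. In CONTROL_IT the share was 6.67% (exact Clopper-Pearson 95% interval 0.169 to 31.9%, 15 counts) in replicate 9, 10.5% (8.94 to 12.2%) in replicate 10, 21.1% (15.4 to 27.7%) in replicate 11 and 5.21% (1.71 to 11.7%) in replicate 12. The share in the high control, replicate 10, was below that of replicate 11, with intervals that did not meet, and its interval overlapped those of replicates 9 and 12. In NCTD_IT the share was 20.5, 17.3, 11.5 and 21.3% in replicates 17 to 20, and in PTX_IT 23.0% (19.96 to 26.3%), 24.5% (21.7 to 27.4%) and 21.6% (11.3 to 35.3%) in replicates 13, 15 and 16. The PTX_IT shares were above the 4 CONTROL_IT shares, the nearest pair being 21.6% and 21.1%, but the interval of PTX_IT replicate 16 holds the share of CONTROL_IT replicate 11.

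In MIX_IT the share spanned nearly the whole series, with 35.5% (25.8 to 46.1%) in replicate 21, 22.4% (20.3 to 24.6%) in replicate 22, 0 of 42 counts (0 to 8.41%) in replicate 23 and 10.9% (8.78 to 13.4%) in replicate 24. Replicate 23 still had 7.52 CPM of Prf1 and 2.43 CPM of Nkg7. In the IP tumors it was 16.01 and 18.8% in CONTROL_IP, 28.4 and 16.7% in PTX_IP, 20.1 and 30.0% in NCTD_IP and 23.4 and 11.5% in MIX_IP. Both NCTD_IP tumors were above both controls, and the other IP drug groups held 1 tumor on either side or overlapped. The interval of NCTD_IP replicate 5 (16.2 to 24.5%) overlapped those of both controls (12.6 to 19.9% and 16.9 to 20.7%). The intervals cover counting error only.

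**Figure D5:**
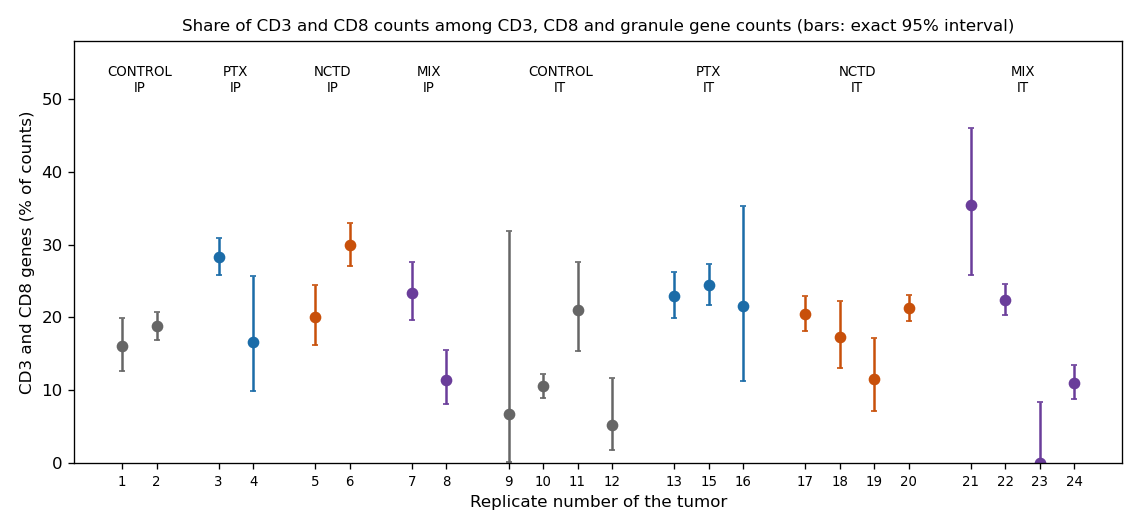
Counts of Cd3d, Cd3e, Cd3g, Cd8a and Cd8b1 as a percent of their sum with the granule genes Gzma, Gzmb, Prf1 and Nkg7, for each tumor by group and replicate number, with exact 95% intervals. Shares run from 0% in MIX_IT replicate 23 to 35.5% in MIX_IT replicate 21, and CONTROL_IT replicate 10 sits at 10.5%.

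Other genes of the pathway, from lists that hold none of the 10, were not called either. Of 23 genes of the T cell receptor and its signalling, 18 were tested in the IT route and 0 passed edgeR's adjusted threshold against any control. At the unadjusted one 4 were higher in NCTD_IT, among them Trac (2.54 ± 0.93), the receptor's alpha constant region, Lcp2 (1.82 ± 0.76), an adaptor of receptor signalling, and Fyn (0.47 ± 0.20), a kinase also expressed outside lymphocytes. The list's median log2 fold change was 1.57 in NCTD_IT, 1.43 in PTX_IT, 0.47 in MIX_IT, 0.03 in NCTD_IP, -0.36 in PTX_IP and -0.72 in MIX_IP. Trac was at 0 to 2.19 CPM in CONTROL_IT and at 1.04 to 12.5 CPM in NCTD_IT, with overlap.

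Of 18 NK cell receptors and adaptors, 14 were tested in the IT and 15 in the IP route, and 0 passed the adjusted threshold. Klrc1, which encodes an NKG2 chain that pairs with CD94, had a log2 fold change of 2.76 ± 1.17 in NCTD_IT and was the 1 gene at the unadjusted threshold. Ncr1, which encodes the activating receptor NKp46 of NK cells, had -2.17 ± 0.95 in NCTD_IP, -1.998 ± 0.91 in PTX_IP and -3.21 ± 1.06 in MIX_IP, with adjusted p values of 0.999, 0.906 and 0.999 in edgeR. Ncr1 was at 2.72 and 7.81 CPM in CONTROL_IP and at 0 to 1.497 CPM in the 6 IP drug tumors, so that both controls were above all of them. Of these controls, replicate 2 had Xist above Ddx3y, which held for none of the 6 drug tumors. With 2 tumors a group, 31.7% of all genes did not overlap with the control in PTX_IP, 34% in NCTD_IP and 36% in MIX_IP. Klrb1c, which encodes NK1.1, had -1.96 ± 0.81 in MIX_IP. The third gene of the list at the unadjusted threshold in MIX_IP was Slamf7, named after its value was seen. It encodes a receptor of NK and other immune cells and had 1.47 ± 0.65. These were 3 of 15 genes tested, where 2.94% of all genes were at that threshold. Of the same 15 genes, 3 had a positive value in MIX_IP. The list's summed level had an r of 0.984 over 23 tumors with the sum of the 10 genes, near that of the pan-leukocyte markers (0.970). Its largest counts over all tumors were those of Tyrobp (4946), Il2rb (3739) and Fcgr3 (3516), named after their counts were seen, and Ncr1 had 265. The T cell receptor list had an r of 0.880, and its largest counts were those of Fyn (4427), at 28.2 to 59.9 CPM in every tumor. The r of a list thus rests on its most counted genes. Whether the 10 genes follow NK cells more than T cells was not tested. Of 8 ligands of NKG2D, 2 were tested, Raet1e (-0.92 ± 0.45 in NCTD_IT) and Ulbp1 (1.02 ± 0.60), with 0 past either threshold in that comparison.

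Of 22 further granule, release and death ligand genes, 19 were tested in the IT route, 0 passed the adjusted and 4 the unadjusted threshold in NCTD_IT, with a median of 1.13. Stx11, a syntaxin needed for granule release, had 1.06 ± 0.34 (adjusted p 0.0949 in edgeR), and Srgn, the proteoglycan that packs granules in many leukocytes, had 1.68 ± 0.67. The medians were 0.60 in PTX_IT and 0.30 in MIX_IT. Of 13 transcription factors of effector lymphocytes, 12 were tested and 0 passed the adjusted threshold, with 6 in NCTD_IT and 4 in PTX_IT at the unadjusted one, all higher. Prdm1, which encodes BLIMP-1 and is also expressed outside lymphocytes, had 2.47 ± 0.62 (adjusted p 0.0546 in edgeR) in NCTD_IT. Prdm1 was at 0.772 to 8.76 CPM in CONTROL_IT and at 10.7 to 25.1 CPM in NCTD_IT, without overlap, as were 16.1% of all genes. Gata3 had 3.25 ± 1.14 in NCTD_IT and 3.09 ± 1.20 in PTX_IT, and Bcl11b 2.87 ± 1.09 and 2.50 ± 1.15. All lists are read against the 21.6% and 6.35% of genes at the unadjusted threshold in these comparisons.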

How the data were processed

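RNA was sequenced from 23 B16-F1 tumors in 8 groups with a kit that reads the 3′ ends of transcripts, so levels are per transcript end and are not compared between genes. Per the labels and methods, the authors trimmed reads with Trimmomatic, checked them with FastQC, aligned them with STAR 2.7.11b to GRCm39 and deposited raw gene counts, which are whole numbers without normalization. Counts were tested in edgeR 4.0.16 (R 4.3.3, limma 3.58.1) with TMM scaling, genes kept by filterByExpr (minimum count 10, minimum total 15), 1 quasi-likelihood model per route and 1 over all tumors for route and interactions, an adjusted p of 0.05 as the threshold, and Benjamini-Hochberg adjustment. DESeq2 1.42.0, its size factors in edgeR, no filter on low counts, and leaving out each tumor in turn were the alternatives, and the code was tested on simulated data. Fold changes are log2. CPM values are TMM-scaled over all 23 tumors. The 10 genes and all lists were chosen with earlier results of these data known. All 10 genes were named, and from each pathway list the genes past the adjusted threshold and the 3 with the smallest unadjusted p over the 6 drug comparisons, other list genes by counts. Marker lists were described by sums and markers past the threshold.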

Additional observations from a re-analysis of the deposited data

Results flagged for a closer look

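CONTROL_IT replicate 10 was far above the other 3 tumors of its group in 7 quantities on the CPM scale, by Dixon's criterion for 4 samples (critical value 0.829). These were the sum of the 10 genes (313 CPM), the sum of the 4 granule genes (271 CPM), Gzma (88.7 CPM), Gzmb (94.6 CPM), Prf1 (69.5 CPM), Klrk1 (10.7 CPM) and Cd8b1 (5.70 CPM). NCTD_IT replicate 20 was far above its group for Gzma (62.1 CPM). In all, 8 of 42 groups of 4 were marked, and the quantities are correlated. The criterion marks about 1 in 20 by chance only for normally distributed values. It was applied to CPM and not on the log2 scale, so that rate cannot be set against these marks. Their cause was not tested.

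Gzma in NCTD tumors was on opposite sides of the control mean in the routes, with all 4 NCTD_IT tumors above and both NCTD_IP tumors below on the log2(CPM + 1) scale, a difference between the routes of 2.37. The ranges overlapped in both routes. CONTROL_IT replicate 10 (88.7 CPM) was above all 4 NCTD_IT tumors, and NCTD_IP replicate 6 (26.7 CPM) was above CONTROL_IP replicate 1 (19.996 CPM). For the difference between the routes, edgeR's own test gave 1.31 ± 1.67 (SE) with an adjusted p of 0.803. The sex-linked split of the IT groups given above lies in this difference too.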

How the results depend on the processing

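No paired analysis was possible because each tumor carries a replicate number of its own. With another scaling, with DESeq2 and without any 1 tumor, the number of the 10 genes called stayed at 0 in all 13 comparisons. Without the filter on low counts edgeR called 6 for NCTD_IT, 1 for PTX_IT, 1 for MIX_IT, 6 for any difference among IT groups, 8 for MIX_IT against the sum of the single drugs, 1 for PTX_IP, 1 for MIX_IP, 2 for any difference among IP groups, 1 for the NCTD and 2 for the PTX difference between routes, against 0 each with the filter. Fold changes moved by at most 0.0241 and standard errors fell, and the cause was not tested. Of 60 fold changes, 39 changed sign when 1 tumor was left out, 3 for NCTD_IT, 3 for PTX_IT, 9 for MIX_IT, 8 for NCTD_IP, 7 for PTX_IP and 9 for MIX_IP. None changed sign with another tool, scaling or filter, and the group means of the 10 genes moved by less than 1 SD between tumors under both other CPM scalings. Over the tumors left out, the log2 fold change in NCTD_IT ran from -0.15 to 2.28 for Gzma, from -0.0635 to 3.29 for Gzmb and from -0.10 to 2.33 for Nkg7. In PTX_IT it ran from -0.0749 to 2.38 for Gzma, from -0.23 to 2.51 for Gzmb and from -0.28 to 2.80 for Prf1. It ran from -1.56 to 0.96 for Gzma in MIX_IT, from -1.81 to 2.06 for Cd3g in PTX_IP and from -1.32 to 1.49 for Cd3d in MIX_IP. The IP groups held 2 tumors each.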
